A study of Mus musculus with 4 samples.

Results

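The insulin-like growth factor (IGF) genes were read in 4 single-cell libraries of mouse thyroid, as 9 genes of the 32285 in the count matrices: Igf1, the receptor genes Igf1r and Igf2r, and the binding protein genes Igfbp2, Igfbp3, Igfbp4, Igfbp5, Igfbp6 and Igfbp7. They were taken by symbol, and each matched 1 row. The libraries came from dissociated thyroid of C57 mice (C57BL/6 in the study's methods) labelled postnatal day 5, 10, 20 and 30, with 1 droplet 3′ library per age, made from the pooled tissue of several animals. The age difference therefore had no replicate, and no test across ages was made. The wider study asked how immune cells and thyroid follicular cells (TFCs) interact while follicles form. The level of each gene was the share of a class's unique molecular identifiers (UMIs, counted mRNA molecules), given as CPM (UMIs of the gene per 1000000 UMIs of the class), in each of 6 cell classes of each library, which made 24 sums. Values of the 4 libraries are given in the order of their labels, day 5, 10, 20, 30.

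IGF1 is a peptide growth factor made by the liver and by stromal and myeloid cells of many organs, and together with thyrotropin it acts on the growth of TFCs. IGF1R is a receptor tyrosine kinase that carries the signal of IGF1 and IGF2, while IGF2R, the cation-independent mannose 6-phosphate receptor, takes IGF2 to the lysosome and has no kinase. The binding proteins hold IGFs outside the cell and are cut by proteases, which sets how much free ligand reaches the receptor. IGFBP3 is the main carrier in blood, IGFBP6 prefers IGF2, and IGFBP7 binds IGFs weakly.

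Before the levels, several facts about the libraries limit what they can show. The 29661 cells kept split into 13023, 5663, 6155 and 4820 by library, and 13522 fell into the 6 classes. The class sums ranged from 104489 UMIs in 21 mural cells of the library labelled day 20 to 25920793 UMIs in 2363 TFCs of the library labelled day 5. H19, an imprinted RNA that falls after birth, stood in fibroblasts at 63.2, 818, 123 and 2887 CPM, and so was highest where the label gave the oldest age. Igf2, the fetal IGF ligand, had the same order in fibroblasts, at 19, 219, 37.6 and 927 CPM. The authors' combined table numbered the library labelled day 30 as 1 and the one labelled day 5 as 4, for all barcodes listed once. The study's methods give the most cells to postnatal day 30, whereas the library labelled day 5 had the highest number of listed barcodes, 15297 against 6555 to 7843 in the others. Whether the labels day 5 and day 30 were exchanged could not be told from the files. Libraries are therefore called by their labels throughout, and no direction with age is drawn. For cells of libraries with the labels day 10, 20 and 30, between 97.4% and 98.8% of barcodes also occurred in each of the other two, with a median of 8 to 12 UMIs there, against 33.6% to 49.9% and a median of 1 UMI in pairs with the library labelled day 5.

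The classes were formed by clustering without the IGF genes among the features and were checked against markers. The sum of 8 endothelial genes was 11395 to 15278 CPM in the capillary classes and at most 779 CPM in the 4 others. Fibroblasts held 33056 to 59869 CPM of 6 fibroblast genes, mural cells (pericytes and smooth muscle) 20906 to 28657 CPM of 8 mural genes, macrophages 20779.7 to 23249 CPM of 8 macrophage genes, and TFCs 37953 to 72541 CPM of 9 follicular genes. No gene of its own list was at 0 in any class. Capillary cells were parted by their subcluster's level of Esm1, a gene of sprouting endothelium, into 1551 Esm1-positive and 1369 Esm1-negative cells, and 2993 of 5913 with levels in between or with genes of another lineage were left out. Negative here means low, since these cells still held 172, 276, 204 and 381 CPM of Esm1 by library, against 1537, 2839, 2513 and 1961 CPM in the positive class and at most 46.5 CPM in classes outside the endothelium. Free RNA was read in droplets of 10 to 100 UMIs. A level at or below it is given as no more than background, which means only that it did not exceed free RNA. The share of free RNA in each class was not estimated, and some genes lay far below it, such as Igfbp6 in macrophages at 0.0236 to 0.0976 times. A level below free RNA is therefore not shown to be free RNA alone.

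On GRCm38, Igfbp2 (chr1:72824503-72852474, plus strand) and Igfbp5 (chr1:72857932-72874884, minus strand) are neighbours 5457 bp apart, and Igfbp3 (chr11:7206086-7213923, minus strand) ends 3539 bp from Igfbp1. Igfbp4 (chr11:99041244-99054392) is elsewhere on chromosome 11. Igf1 spans chr10:87858265-87937042, Igf1r chr7:67952827-68233668, Igf2r chr17:12682406-12769664 (minus strand), Igfbp6 chr15:102144362-102149511 and Igfbp7 chr5:77349240-77408041 (minus strand). Igf1 overlaps Igf1os, Igf2r overlaps Airn, and Igfbp7 overlaps Polr2b and Gm34648, all on the opposite strand. Whether the counting used strand was not given in the sources used here, so reads of these pairs may not be told apart.

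The 250 bases before the RefSeq start of a gene are shown for both gene pairs with the highest correlation of levels over the 24 sums. These were Igfbp3 with Igfbp7 (Pearson r = 0.80) and Igf1r with Igf2r (r = 0.75). The points share libraries and classes, so both values only describe the pattern. RefSeq starts can differ from the GENCODE positions given above. There Igf1r starts at 67952827, while its window ends at 67952256. The RefSeq windows on GRCm38.p6 were chr11:7213924-7214173 for Igfbp3 and chr5:77408046-77408295 for Igfbp7, both on the minus strand, chr7:67952007-67952256 for Igf1r on the plus strand and chr17:12769707-12769956 for Igf2r on the minus strand. Each is written 5′ to 3′ along its gene, and capitals mark GGGCGG (the GC box), TATAAA (the TATA box) or AGGAAG (a core of ETS factor sites) on either strand.
Igfbp3: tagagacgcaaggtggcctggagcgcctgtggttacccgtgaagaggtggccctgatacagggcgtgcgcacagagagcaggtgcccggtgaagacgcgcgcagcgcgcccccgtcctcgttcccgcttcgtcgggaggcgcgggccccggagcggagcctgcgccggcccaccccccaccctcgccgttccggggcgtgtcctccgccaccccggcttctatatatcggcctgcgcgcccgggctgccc
Igfbp7: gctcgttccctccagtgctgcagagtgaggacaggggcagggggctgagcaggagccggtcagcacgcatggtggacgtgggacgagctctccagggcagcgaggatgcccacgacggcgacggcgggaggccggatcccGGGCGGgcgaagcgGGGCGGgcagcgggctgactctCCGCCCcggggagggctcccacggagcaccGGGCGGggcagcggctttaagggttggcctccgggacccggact
Igf1r: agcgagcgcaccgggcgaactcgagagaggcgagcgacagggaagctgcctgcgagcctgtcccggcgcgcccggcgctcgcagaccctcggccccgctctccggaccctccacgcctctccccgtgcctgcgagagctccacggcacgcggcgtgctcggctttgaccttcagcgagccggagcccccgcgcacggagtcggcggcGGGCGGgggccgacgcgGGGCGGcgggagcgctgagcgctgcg
Igf2r: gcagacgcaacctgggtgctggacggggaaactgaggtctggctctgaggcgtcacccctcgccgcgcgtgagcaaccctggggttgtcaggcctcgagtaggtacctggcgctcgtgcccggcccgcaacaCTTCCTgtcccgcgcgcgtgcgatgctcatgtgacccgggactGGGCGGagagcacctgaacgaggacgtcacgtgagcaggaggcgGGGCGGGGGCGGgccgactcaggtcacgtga
The Igfbp7 window held 4 GC boxes, that of Igf1r 2 and that of Igf2r 3 with 1 ETS core, while no searched motif occurred in the Igfbp3 window. No hit of 1 motif overlapped a hit of another. Over 32851 windows of the same length, 32.7% held a GC box, 12.4% a TATA box and 29.5% an ETS core. The G and C share was 73.2%, 74.0%, 77.6% and 69.2% in the 4 windows, against a median of 52.4% over all windows. RefSeq gave a window for each of the 9 genes.

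Igf1 was a transcript of fibroblasts first and of macrophages second. By library, fibroblasts held 1152, 1008, 882 and 1089 CPM (1033 ± 117, SD, n = 4). Macrophages held 135, 378, 271 and 486 CPM and mural cells 53.5, 161, 57.4 and 356 CPM. The fibroblast range lay above every other class, and the ranges of macrophages and mural cells overlapped. By edgeR's quasi-likelihood test over all 13437 genes, with libraries as replicates, macrophages were 3.18-fold lower than fibroblasts (log2 difference of -1.67 ± 0.38, SE, adjusted p = 0.000656) and mural cells 8.18-fold lower (adjusted p = 6.44e-06). Macrophages stood above mural cells by 1.36 ± 0.40 (adjusted p = 0.00652). Igf1 in TFCs, at 14.1 to 22.7 CPM, was below the free RNA of its library in all 4, and 55.6-fold below fibroblasts (adjusted p = 2.85e-10). With each cell thinned to 1000 UMIs, 43.6% to 58.1% of fibroblasts and 1.68% to 3.63% of TFCs had an Igf1 UMI, and unthinned 84.6% to 94.4% and 16.9% to 27.1%, at median depths of 4146.5 to 13522.5 and 8323 to 17981.5 UMIs.

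Within the stroma, Igf1 was unevenly held. These subdivisions came from the same clustering and are described without a test. Macrophages with Folr2, which marks tissue-resident cells, held 345, 433, 399.9 and 523 CPM of Igf1. Other macrophages held 34.3, 57.7, 111 and 91.2 CPM, so the groups did not overlap. Fibroblasts with the adventitial markers Pi16 and Dpp4 held 429 to 592 CPM and all other fibroblasts 975 to 1268 CPM. Among mural cells, pericytes held 83.1, 324, 72.6 and 602 CPM, with 8 and 2 UMIs behind the 83.1 and the 72.6, and smooth muscle 11.7 to 64.7 CPM. The 6 fibroblast genes summed to 1607, 3805, 4030 and 3166 CPM in mural cells, and their part in mural Igf1 was not tested.

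The receptor Igf1r was spread over mural cells, TFCs and fibroblasts at levels that could not be ordered. By library it stood at 143, 137, 211 and 155 CPM in mural cells, 114, 152, 193 and 170.3 CPM in TFCs and 92.8, 147, 229 and 123 CPM in fibroblasts. TFCs and fibroblasts differed by 0.03 ± 0.16 on the log2 scale (adjusted p = 0.879), and mural cells and TFCs by -0.07 ± 0.17 (adjusted p = 0.769). With doublets kept, fibroblasts exceeded mural cells by 0.77 (adjusted p = 0.00695). Esm1-positive capillary cells held less than fibroblasts by 1.00 ± 0.17 (adjusted p = 2.72e-05), at 49.4, 77.2, 96.0 and 102 CPM. Macrophages, at 24.3 to 37.7 CPM, were 4.11-fold below fibroblasts (adjusted p = 8.94e-10) and below free RNA in all 4 libraries.

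Igf2r, the scavenger of IGF2, was highest in mural cells and fibroblasts and nearly missing from macrophages. Mural cells held 56.6, 154, 182 and 205 CPM and fibroblasts 104, 132, 105 and 158 CPM, ranges that overlapped (log2 difference of 0.10 ± 0.24 for fibroblasts minus mural cells, adjusted p = 0.815). Macrophages held 3.71, 1.52, 5.30 and 1.62 CPM, from 7 to 13 UMIs a library, which was 42.7-fold below fibroblasts (adjusted p = 4.22e-12) and at most 0.240 times the free RNA of the library, so no more than background. TFCs stood at 33.9 to 47.0 CPM, 3.05-fold below fibroblasts (adjusted p = 2.02e-06). Pericytes, at 199.9 to 399 CPM, did not overlap smooth muscle, at 44.4 to 111 CPM. In the library labelled day 20, 11 UMIs were behind the pericyte level and 8 behind that of smooth muscle. The 95% counting intervals of both groups overlapped, at 127 to 321 CPM (pericytes, labelled day 5) and 44.9 to 205 CPM (smooth muscle, labelled day 20).

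**Figure D1:**
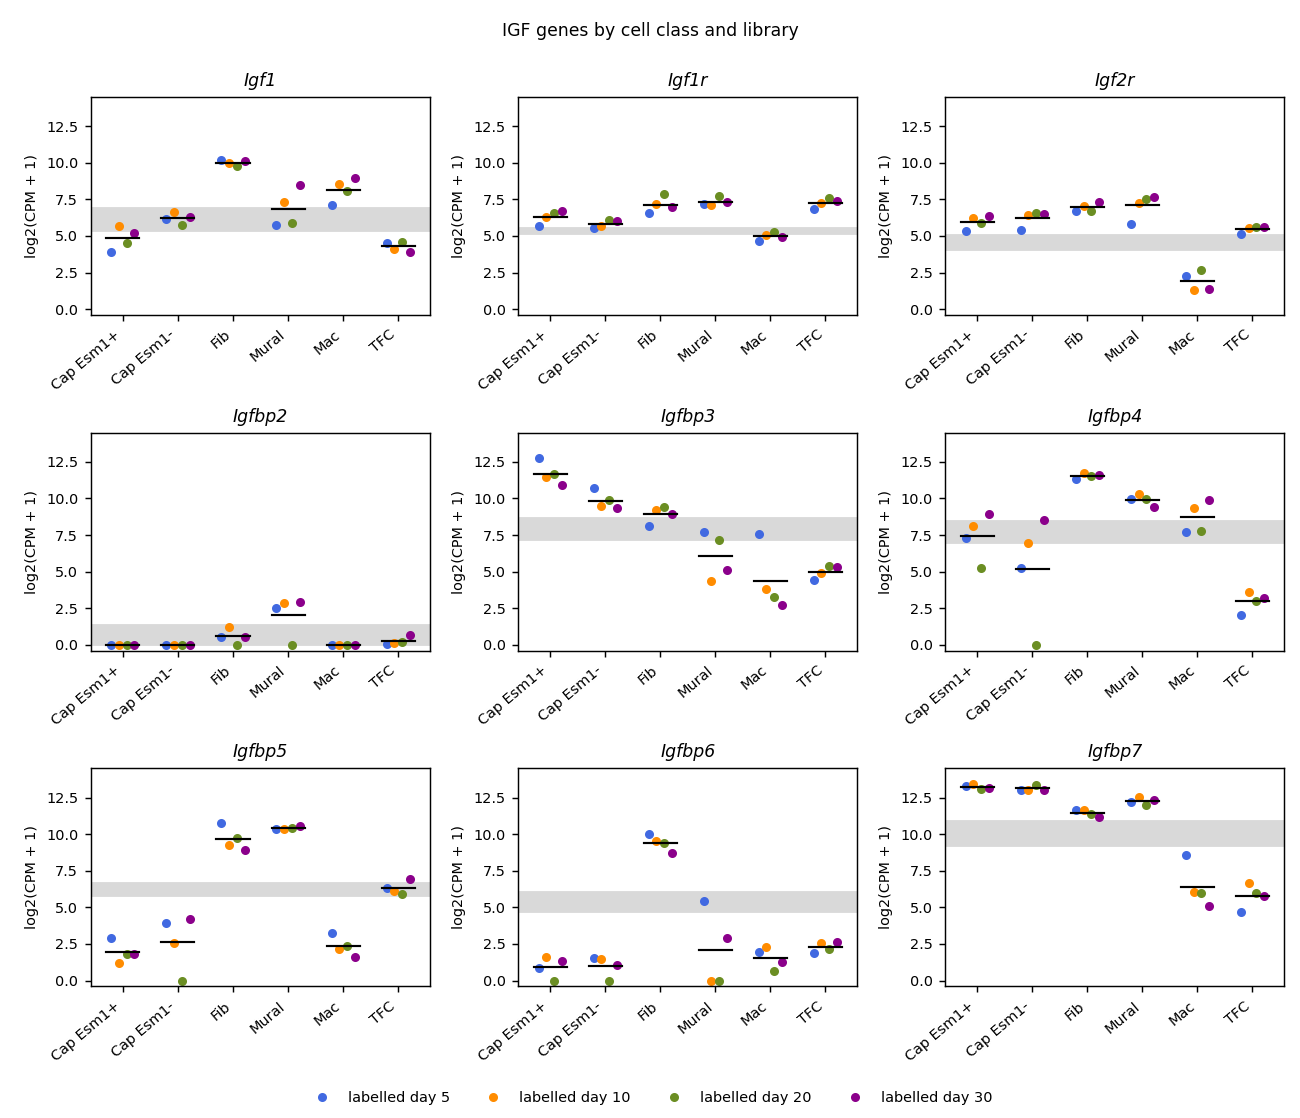
Level of each of the 9 genes as log2(CPM + 1), on the y axis, in 6 cell classes (Cap, capillary, Esm1-positive and Esm1-negative; Fib, fibroblasts; Mac, macrophages; TFC, follicular cells), with 1 point per library and the mean of 4 libraries as a line; the grey band spans the free RNA of the 4 libraries. Igf1, Igfbp4 and Igfbp6 are highest in fibroblasts, Igfbp3 and Igfbp7 in capillary cells, and the Igfbp2 points of both capillary classes and of macrophages lie at 0 in all 4 libraries.

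By mean level over the 4 libraries, Igfbp3 and Igfbp7 were highest in both capillary classes. Igfbp3 stood at 7033, 2859, 3210.2 and 1906 CPM in Esm1-positive capillary cells. Esm1-negative capillary cells held 1640.4, 708, 966 and 656 CPM and fibroblasts 283, 583, 678 and 500.1 CPM. All Esm1-positive levels lay above all Esm1-negative ones. Esm1-negative cells overlapped fibroblasts, and the difference did not pass edgeR's test (0.38 ± 0.62 on the log2 scale, adjusted p = 0.637). Esm1-negative cells exceeded mural cells by 3.70 ± 0.75 on the log2 scale (adjusted p = 0.000407), and fibroblasts exceeded mural cells by 3.32 ± 0.75 (adjusted p = 0.00146). Igfbp3 in mural cells, macrophages and TFCs was below free RNA in all 4 libraries, and in fibroblasts it was above in 3 of 4, with 283 against 413 CPM of free RNA under the label day 5. Thinned to 1000 UMIs a cell, 72.9% to 94.1% of Esm1-positive capillary cells had an Igfbp3 UMI, and 1.69% to 3.35% of TFCs (94.6% to 98.5% and 13.5% to 40.6% unthinned, at median depths of 1878 to 11218 and 8323 to 17981.5 UMIs).

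Igfbp7, a secreted protein of vessel walls, was high in 4 classes. It stood at 10099.6, 11058, 8729 and 9296 CPM in Esm1-positive and 8379.9, 8460.2, 10506 and 8451 CPM in Esm1-negative capillary cells. Mural cells held 4585, 6086, 3991 and 5283 CPM and fibroblasts 3266, 3253, 2600.2 and 2290.5 CPM. The capillary ranges overlapped each other and lay above those of mural cells, which lay above those of fibroblasts. No step in this order passed the test, from 0.16 ± 0.47 between capillary classes (adjusted p = 0.984) to 0.85 ± 0.48 from Esm1-negative cells to mural cells (adjusted p = 0.168). The latter passed without the library labelled day 5 (0.91, adjusted p = 0.00265), with cells thinned to 1000 UMIs (1.01, adjusted p = 0.0112) and in a fit of both classes alone (0.85, adjusted p = 0.00364). The step from mural cells to fibroblasts passed without the library labelled day 5 (-0.62 for fibroblasts minus mural cells, adjusted p = 0.0359). It also passed in a fit of both classes alone (-0.61 for fibroblasts minus mural cells, adjusted p = 0.0181). Over fibroblasts, Esm1-positive capillary cells were higher by 1.62 ± 0.48 (adjusted p = 0.00719) and Esm1-negative cells by 1.46 ± 0.48 (adjusted p = 0.0148). Macrophages were 20.7-fold below fibroblasts (adjusted p = 5.40e-07) and TFCs 48.9-fold (adjusted p = 2.10e-08), and both were below free RNA in all 4 libraries.

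Igfbp4, the binding protein cut by the protease PAPP-A, was highest in fibroblasts, at 2555, 3339, 2952 and 3041 CPM. Mural cells held 983, 1254, 1014 and 693 CPM, all below fibroblasts, and the difference was 1.79 ± 0.52 (adjusted p = 0.0109). The difference stayed as large but did not pass without the library labelled day 10 (1.82, adjusted p = 0.0713) or with no library term in the fit (1.81, adjusted p = 0.0558). Macrophages held 212, 649.5, 223 and 963 CPM, 6.67-fold below fibroblasts (adjusted p = 0.000143) and above free RNA in all 4 libraries. Their Folr2 group carried 375 to 1035 CPM and other macrophages 34.4 to 198 CPM, the same split as for Igf1. In smooth muscle it stood at 1031 to 2239 CPM and in pericytes at 187 to 581 CPM, without overlap, with 16 UMIs behind the 581. TFCs held 3.12 to 11 CPM, at most 0.0418 times their library's free RNA.

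Igfbp5, an abundant binding protein of muscle and connective tissue, was highest in mural cells and fibroblasts among the 6 classes, while lymphatic endothelial cells, outside these classes, held 325 to 3286 CPM. Mural cells held 1299.7, 1314, 1349 and 1475 CPM and fibroblasts 1736, 608, 852 and 493 CPM, and the difference did not pass the test (-0.46 ± 0.32 for fibroblasts minus mural cells, adjusted p = 0.292). The mural levels lay closer together than the fibroblast levels, in a class whose share of pericytes differed among libraries. Adventitial fibroblasts held 3384, 2186, 2393 and 2067 CPM and other fibroblasts 1393, 177, 533 and 189 CPM. Smooth muscle held 1353 to 2101 CPM and pericytes 363 to 968 CPM, with 10 UMIs behind the 363. TFCs held 77.2, 69.1, 58.4 and 123 CPM, 11.2-fold below fibroblasts (adjusted p = 1.16e-08) and above free RNA in 3 of 4 libraries. Capillary cells and macrophages held at most 17.2 CPM.

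Igfbp6 was a gene of fibroblasts. It stood there at 1029, 750.1, 669 and 421 CPM, against at most 42.7 CPM in any other class. Fibroblasts exceeded mural cells by 5.65 ± 0.49 on the log2 scale (adjusted p = 9.31e-09), macrophages by 7.99 ± 0.52 (adjusted p = 1.44e-11) and TFCs by 7.47 ± 0.47 (adjusted p = 7.49e-12). Mural cells held 42.7, 0, 0 and 6.50 CPM, from 55, 0, 0 and 7 UMIs, so the library labelled day 5 carried nearly all of it. There 1.64% of 305 mural cells, or 5 cells, had an Igfbp6 UMI, so every mural value of this gene rests on few cells. In those day 5 mural cells the 9 follicular genes, none at 0, summed to 8423 CPM, against 255 to 824 CPM in the other three, and their part was not tested. TFCs lay above mural cells by mean log2 level, while the fit put them 1.82 ± 0.55 below (adjusted p = 0.00955), a difference that rests on the 55 UMIs of those 5 cells for most of the mural count. Igfbp6 was below free RNA in all 4 libraries in both capillary classes, macrophages and TFCs and in 3 of 4 in mural cells, so these levels are no more than background and the differences from them describe fibroblasts against background. Adventitial fibroblasts held 1085 to 2291 CPM and other fibroblasts 293 to 767 CPM.

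Igfbp2 was at or near 0. Capillary cells and macrophages had no UMI in any library. Mural cells held 4.65, 6.09, 0 and 6.50 CPM, from 6, 4, 0 and 7 UMIs, all of them in smooth muscle. It did not pass the filter on low counts, so 8 of the 9 genes were tested. Where it had no UMI, 3 counts of the class sum would allow up to 1.18 CPM in Esm1-positive capillary cells of the library labelled day 5 and up to 19.7 CPM in the Esm1-negative cells of the library labelled day 20. In mural cells of the library labelled day 20 they would allow up to 28.7 CPM. All such limits cover counting error only.

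**Figure D2:**
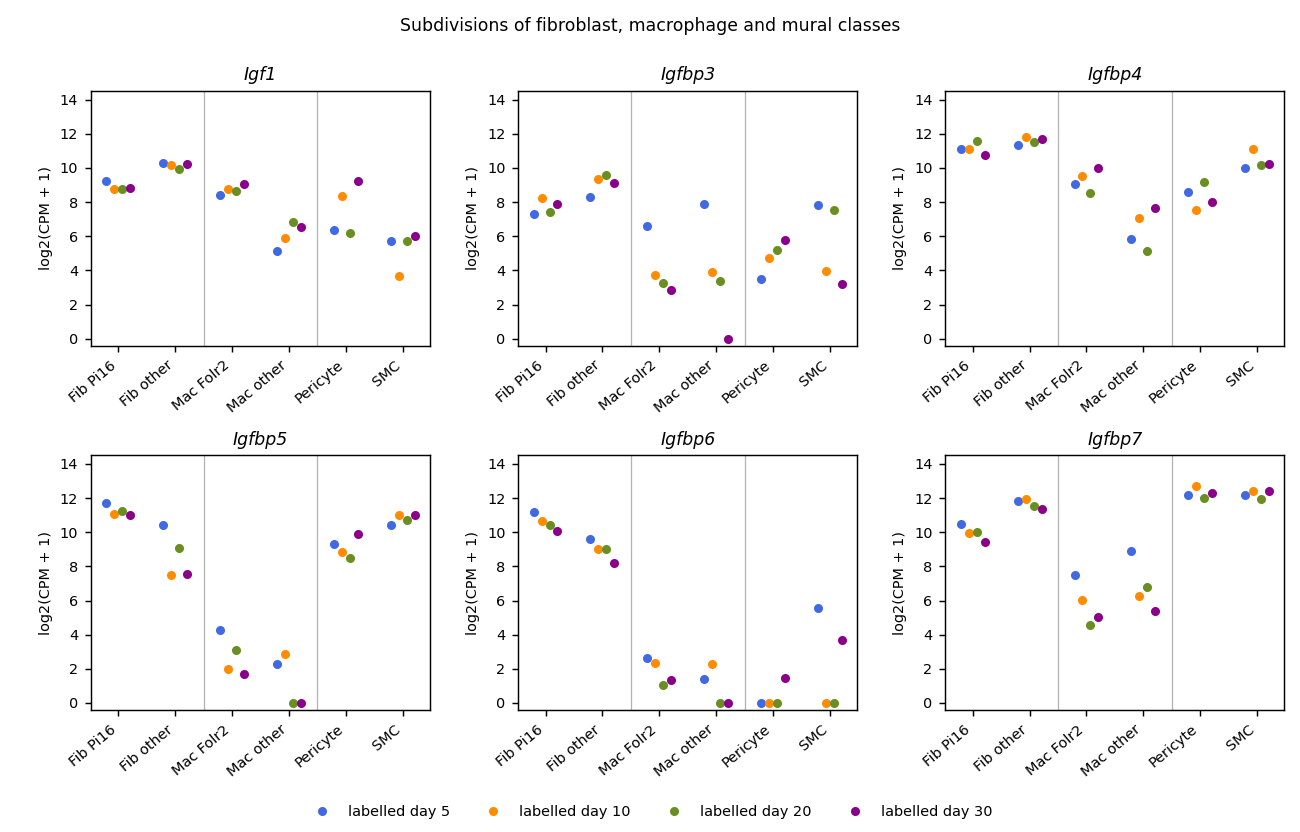
Levels of 6 genes as log2(CPM + 1), on the y axis, in subdivisions of fibroblasts (adventitial, marked Fib Pi16, and other), macrophages (with Folr2, and other) and mural cells (pericytes, and smooth muscle as SMC), with 1 point per library. Igf1 and Igfbp4 are higher in Folr2 macrophages than in other macrophages in all 4 libraries, and Igfbp5 and Igfbp6 are higher in adventitial than in other fibroblasts.

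Esm1-positive and Esm1-negative capillary cells were compared to ask whether capillary cells high and low in Esm1 differ in IGF genes. Stmn2 and Gja4 were among the leading genes of some Esm1-positive subclusters and also of a cluster of larger vessel endothelium. An Esm1-positive subcluster of 554 cells under the label day 5 was led by Hba-a1, a hemoglobin gene. The Esm1-positive class is therefore not shown to be sprouting endothelium. In the fit over all 6 classes, none of the 8 genes tested passed, while 2.98% of all genes did. DESeq2 on the same sums called 1, Igfbp5. Igfbp3 was higher in Esm1-positive cells in 4 of 4 libraries, by 4.29, 4.04, 3.32 and 2.90 times (log2 difference of 1.90 ± 0.63, adjusted p = 0.145). Igf1 was lower in 4 of 4, by -1.33 ± 0.43 (adjusted p = 0.130), at 14.2, 49.8, 22.2 and 35.4 CPM against 71.3, 100.3, 52.6 and 75.7 CPM. Those Igf1 levels were below free RNA in all 4 libraries in Esm1-positive cells and in 2 of 4 in Esm1-negative cells. Igf1r was higher in 4 of 4 libraries (0.49 ± 0.18, adjusted p = 0.201), and so was Igfbp4 (0.96 ± 0.53, adjusted p = 0.541), at 159.9, 277, 36.9 and 481 CPM against 36.2, 126, 0 and 367 CPM. Those Igfbp4 levels were above free RNA in 2 of 4 libraries in Esm1-positive cells and in 1 of 4 in Esm1-negative cells. The 0 in the library labelled day 20 stands for 48 cells with 152100 UMIs, all from 1 subcluster led by Cd36. Top2a, a gene of cell division, was among the leading genes of some Esm1-negative subclusters. They held 61 and 38 cells under the label day 10 and 25 and 60 under the label day 30. It was among the leading genes of no Esm1-positive subcluster, and the part of dividing cells was not tested. Igfbp5, at most 17.2 CPM in both classes and below free RNA in each, differed by -1.83 ± 0.54 (adjusted p = 0.0754).

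This comparison depended on the fit. The 6-class fit has 1 spread per gene for all comparisons, so scatter of every class between libraries enters its SE. For Igfbp3 that SE was 0.63, against 0.11 with the sums of both capillary classes alone. With only the 8 sums of both capillary classes, a fit chosen after the data had been seen, 7 of the genes could be tested and 5 passed, where 7.02% of 10095 genes did. These were Igfbp3 (1.87, adjusted p = 1.69e-07), Igf1 (-1.36, adjusted p = 0.000396), Igfbp4 (1.19, adjusted p = 0.00689), Igfbp5 (-1.72, adjusted p = 0.0113) and Igf1r (0.48, adjusted p = 0.0349). Without the library labelled day 5, 2 genes passed in the 6-class fit, Igfbp3 (adjusted p = 0.000189) and Igfbp5 (adjusted p = 0.0424). No share over all genes is given for that run or for DESeq2, so these counts have nothing beside them. Of 22 other genes of the IGF system, 17 were tested and 2 passed, both higher in Esm1-positive cells: Stc1, which codes for an inhibitor of PAPP-A (2.11 ± 0.42, adjusted p = 0.00496), and Insr, the insulin receptor gene (1.92 ± 0.30, adjusted p = 0.000603), named after its value was seen.

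**Figure D3:**
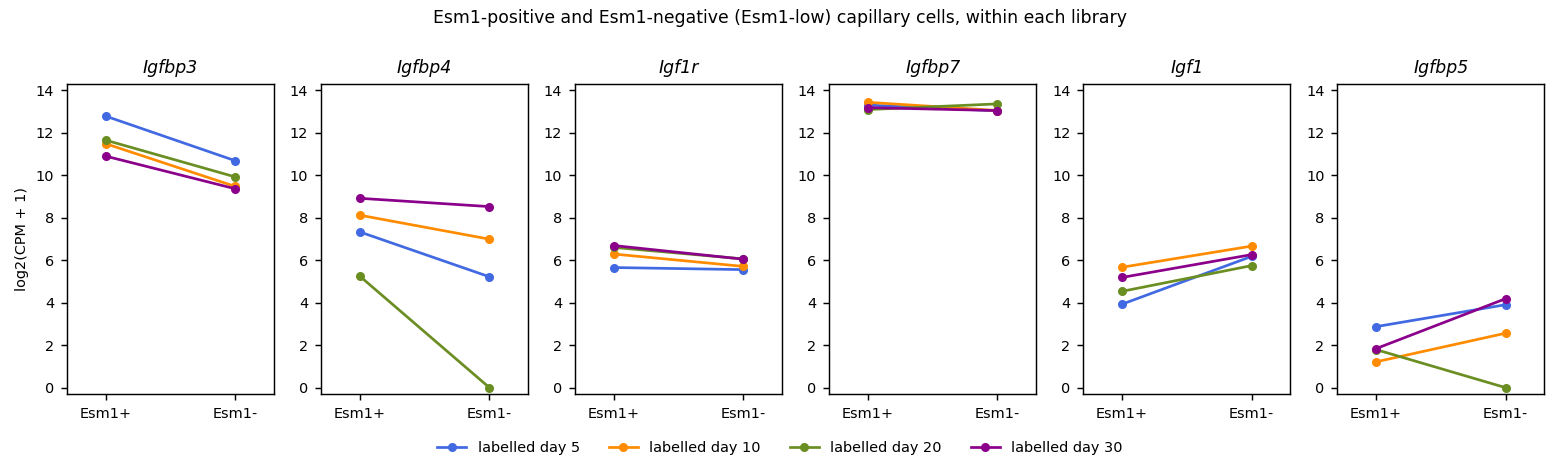
Levels of 6 genes as log2(CPM + 1), on the y axis, in Esm1-positive (Esm1+) and Esm1-negative (Esm1-, low in Esm1) capillary cells, with a line joining both classes of each library. Igfbp3 falls and Igf1 rises from left to right in all 4 libraries, while the Igfbp7 lines cross.

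Fibroblasts and mural cells, both mesenchymal, differed in 4 of the 8 genes tested, Igf1, Igfbp3, Igfbp4 and Igfbp6, and all 4 were higher in fibroblasts. Of all genes, 32.9% passed and 17.6% passed as higher in fibroblasts. With library totals in place of TMM scaling, the median difference over all genes moved from 0.01 to -0.19 and the share of calls higher in fibroblasts from 53.6% to 36.7%, and Igf1r and Igf2r, which had not passed, changed sign to -0.19 and -0.12. In the list of other IGF genes, 7 of 17 tested were higher and 3 lower in fibroblasts. Htra3, a secreted serine protease, was higher by 4.97 ± 0.40 (adjusted p = 2.76e-09), Igf2 by 2.95 ± 0.58 (adjusted p = 0.000384) and Lrp1, an endocytic receptor, by 2.11 ± 0.29 (adjusted p = 5.27e-06), while Stc1 was lower by -1.74 ± 0.52 (adjusted p = 0.0127).

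Macrophages differed from fibroblasts in all 8 genes tested, each of them lower in macrophages. Here 60.4% of all genes passed and 31.9% passed as lower. The differences ran from -1.67 for Igf1 to -7.99 for Igfbp6, with a median of -4.21 against -0.03 over all genes, which library totals moved to -0.19. Macrophage levels of Igf1r, Igf2r, Igfbp3, Igfbp5, Igfbp6 and Igfbp7 were below free RNA in all 4 libraries. For those genes the differences set fibroblasts against levels no more than background. Among the other IGF genes 14 of 17 were lower and 1 was higher, with Htra1, another secreted protease, at -7.46 ± 0.49 (adjusted p = 2.10e-11) and Adamts1, a metalloprotease, at -3.87 ± 0.56 (adjusted p = 3.13e-06).

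TFCs were lower than fibroblasts in 7 of 8 genes tested, the exception being Igf1r. Of all genes, 59.7% passed and 29.1% passed as lower in TFCs. The median over the 8 genes was -4.88 against 0.01 over all genes. Igfbp4 had the largest difference of the 8, at -8.95 ± 0.71 (adjusted p = 3.94e-10). TFC levels of Igf1, Igfbp3, Igfbp4, Igfbp6 and Igfbp7 were below free RNA in all 4 libraries. For those genes the differences set fibroblasts against levels no more than background. Among the other IGF genes 11 of 17 were lower and 2 higher, and Lrp1 was lower by -7.61 ± 0.36 (adjusted p = 8.59e-14).

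Esm1-negative capillary cells differed from mural cells in 6 of the 8 genes, where 38.9% of all genes passed. Igfbp3 was higher in capillary cells, with 16.9% of all genes called in that direction, and Igf1r, Igf2r, Igfbp4, Igfbp5 and Igfbp6 were lower. Igfbp5 differed most, by -6.94 ± 0.44 (adjusted p = 5.39e-11), and Igf1r by -1.46 ± 0.18 (adjusted p = 1.33e-06). Igf2r differed by -0.89 ± 0.26 (adjusted p = 0.00910), and did not pass without the library labelled day 10 (adjusted p = 0.0585) or that labelled day 30 (adjusted p = 0.0843). Igfbp4 differed by -3.29 ± 0.58 and did not pass with doublets kept (-0.57, adjusted p = 0.473). Igfbp6 differed by -3.44 ± 0.76, and did not pass with doublets kept (-0.46, adjusted p = 0.840), without the library labelled day 5 (-1.46, adjusted p = 0.288) or with cells thinned to 1000 UMIs (-2.09, adjusted p = 0.107). Of the other IGF genes 8 of 17 were lower in capillary cells and none was higher.

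Genes that carry the receptor's signal moved in both directions in most comparisons. Of 28 on a list chosen for this, 27 were tested, and their median difference lay between -0.31 and 0.19 in the 5 comparisons, against -0.05 to 0.02 over all genes. The share that passed was 1 of 27 between capillary classes, 14 of 27 between fibroblasts and mural cells, 18 of 27 between macrophages and fibroblasts, 16 of 27 between TFCs and fibroblasts and 17 of 27 between Esm1-negative capillary and mural cells, in both directions in the last 4. Of all genes, 2.98%, 32.9%, 60.4%, 59.7% and 38.9% passed in the same order of comparisons. Pik3r1, the regulatory subunit gene of the kinase PI3K, was lower in Esm1-negative capillary than in mural cells by -1.91 ± 0.22 (adjusted p = 5.38e-07). Akt1, the kinase below PI3K, differed by -0.46 ± 0.11 between TFCs and fibroblasts (adjusted p = 0.00102). Rack1, a scaffold that binds IGF1R, was higher in macrophages than in fibroblasts by 0.50 ± 0.11 (adjusted p = 0.000655). Gsk3b and Socs3, a kinase and a feedback inhibitor, passed in none of the 5 comparisons.

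When the classes were ordered by each gene's mean log2 level, 17 of the 40 neighbouring pairs that could be tested passed (42.5%), against 24.5% over all genes. The 17 include the step from TFCs to mural cells for Igfbp6, where the fit ran against the order. Among them were the steps from fibroblasts to macrophages and from macrophages to mural cells for Igf1, from TFCs to macrophages for Igf2r (3.80 ± 0.33, adjusted p = 1.38e-09), from fibroblasts to mural cells for Igfbp3 and Igfbp4, from fibroblasts to TFCs for Igfbp5 and Igfbp6, and from fibroblasts to macrophages for Igfbp7. The 17 also include the step from mural cells to macrophages for Igfbp6, where 55 UMIs of the library labelled day 5 made up most of the mural count. They include the step from macrophages to TFCs for Igfbp7, where both classes were below free RNA in all 4 libraries. Steps between levels no more than background were not taken out of either share. The other 23 tested neighbours did not pass, among them all 3 steps below mural cells for Igf1, both steps among mural cells, TFCs and fibroblasts for Igf1r, and the top 3 steps for Igfbp7. For Igf1, the step from mural to Esm1-negative capillary cells passed in 5 of 17 alternatives, with differences of -1.18 to -1.77 for capillary minus mural cells, and was -0.17 without the library labelled day 30 (adjusted p = 0.815).

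Among the genes with the most similar profiles over the 24 sums were, for Igf1, Colec12 (r = 0.92) and Cd302 (r = 0.90), and for Igf1r Rcn2 (r = 0.94). For Igf2r they were Impad1 (r = 0.95) and Nedd4 (r = 0.95), and for Igfbp2 Actg2 (r = 0.96) and Cnn1 (r = 0.87), both smooth muscle markers. Igfbp3 was nearest to Ramp2 (r = 0.95) and Tek (r = 0.95), which code for endothelial receptor proteins, and Igfbp7 to Jam3 (r = 0.99) and Phldb2 (r = 0.98). Igfbp4 was nearest to Fgfr1 (r = 0.92) and Ccdc50 (r = 0.89), Igfbp5 to Angptl2 (r = 0.98) and Khdrbs3 (r = 0.96), and Igfbp6 to Angptl1 (r = 0.96) and Lsamp (r = 0.96). These values describe 3241 genes over sums that share libraries and classes. Among the 9 genes themselves, Igf1 and Igfbp4 (r = 0.74) and Igf1r and Igfbp5 (r = 0.72) followed the pairs given above.

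The libraries labelled day 5 and day 30 were set side by side without a test. Of the 33 gene and class pairs with at least 50 CPM in either library, 17 (51.5%) differed at least 2-fold, with 10 higher and 7 lower under the label day 30, against 12.3% over all genes. For the libraries labelled day 20 and day 10 it was 5 of 32 pairs, against 10.3% over all genes. The 17 pairs include Igfbp3 in mural cells and macrophages and Igfbp7 in macrophages and TFCs, which were below free RNA in all 4 libraries. Igfbp7 in TFCs stood at 25.2 CPM under the label day 5 and 54.7 CPM under the label day 30. Every difference that follows is the level under the label day 30 minus that under the label day 5. Igfbp3 was lower under the label day 30 in both capillary classes (log2 differences of -1.88 and -1.32) and in mural cells (-2.64), and stood 0.82 higher in fibroblasts, from a level under the label day 5 that was below free RNA. In mural cells it was below free RNA in all 4 libraries, and the 8 endothelial genes summed there to 779 CPM in the library labelled day 5 against 38.3 to 169.9 CPM in the other three. Igfbp4 was higher by 1.59 and 3.33 in Esm1-positive and Esm1-negative capillary cells and by 2.18 in macrophages, and moved by 0.25 in fibroblasts. The Esm1-negative level was below free RNA under the label day 5, at 36.2 against 124 CPM, and near it under the label day 30, at 367 against 337 CPM, so the free RNA was higher there too. Esm1-positive cells held 159.9 CPM against the same 124 CPM and 481 CPM against the same 337 CPM, and the part of free RNA was not tested. Igf2r was higher by 1.05, 1.12 and 1.85 in both capillary classes and mural cells. Igf1 was higher by 1.84 in macrophages and 2.72 in mural cells, and differed by -0.08 in fibroblasts. In fibroblasts, Igfbp5 was lower by -1.82 and Igfbp6 by -1.29. In macrophages, Igfbp3 (-5.06) and Igfbp7 (-3.58) were lower, and there the 8 endothelial genes, none at 0, summed to 697 CPM in the library labelled day 5 and to 73.4 to 85.3 CPM in the other three. The part of endothelial RNA in these differences was not tested, and age and library cannot be told apart.

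The cells behind each class also differed between these libraries. Folr2 cells were 250 of 1014 macrophages under the label day 5 and 368 of 440 under the label day 30. Within Folr2 macrophages Igf1 was higher by 0.60 and Igfbp4 by 0.95 under the label day 30, less than the 1.84 and 2.18 of the whole class. Within other macrophages they were higher by 1.42 and 1.83, but no more than background under both labels. Igf1 stood there at 34.3 and 91.2 CPM under the labels day 5 and day 30, against 39.3 and 118 CPM of free RNA. Igfbp4 stood at 55.8 and 198 CPM, against 124 and 337 CPM of free RNA. The free RNA was thus also higher under the label day 30, and its part was not tested. Pericytes were 67 of 305 mural cells under the label day 5 and 120 of 161 under the label day 30. Within pericytes Igf1 was higher by 2.77, with 8 UMIs behind the level under the label day 5, and within smooth muscle by 0.35. Igf2r was higher by 0.52 within pericytes and by 1.01 within smooth muscle, both below the 1.85 of all mural cells. Igfbp5 was higher by 0.60 within pericytes and by 0.62 within smooth muscle, while all mural cells held 1299.7 and 1475 CPM. Of the fibroblasts, 1 cluster held 1183 cells under the label day 5 and 10 under the label day 30, and another held 5 and 431. Igfbp5 was lower by -0.71 within adventitial and by -2.88 within other fibroblasts, and Igfbp6 by -1.08 and -1.39. Of all capillary cells, the cluster with the most under the label day 30 held 481 there and 58 under the label day 5.

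**Figure D4:**
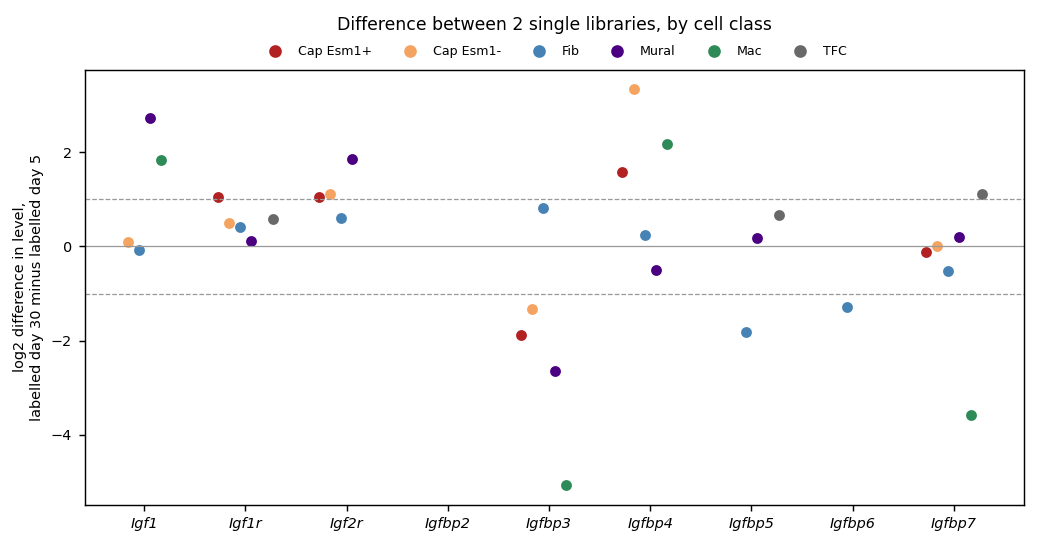
Difference in log2 level between the library labelled day 30 and that labelled day 5, on the y axis, for each of the 9 genes and each class (colours) with at least 50 CPM in either library; dashed lines mark 2-fold. Each point compares 2 single libraries without replicates, from -5.06 for Igfbp3 in macrophages to 3.33 for Igfbp4 in Esm1-negative capillary cells, whose level under the label day 5 was below free RNA.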

How the data were processed

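Droplet 3′ single-cell libraries were made from dissociated thyroid of mice, 1 per labelled age. The authors aligned reads to mm10 with CellRanger (versions differ among the sources) and deposited raw UMI counts per gene and droplet, without a cell filter, and their notes name Seurat 3.1.4 and 3.6.3. Cells were the barcodes of the authors' combined count table, taken in each library's own matrix, with at least 200 UMIs, at most 10% mitochondrial and 5% hemoglobin UMIs. Scrublet's own cutoff marked 8.84%, 0.0166%, 0% and 0% of cells, so cells scoring above the boundary of the highest 6% were removed in each library (760, 350, 388 and 308 cells, since tied scores at the boundary were kept), fewer than the 1218 marked under the label day 5. The study's upper limit of 10000 UMIs and its integration were alternatives here. Clustering (scanpy 1.11.5, 3000 features, 30 components, resolution 2) left out the IGF genes and lists. Each library held 1745460 to 2258644 barcodes and 54921806 to 89039113 UMIs.

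Raw UMI counts were summed per class and library, tested with edgeR 4.0.16 (R 4.3.3) in a quasi-likelihood fit of class and library, TMM and filterByExpr, with Benjamini-Hochberg adjustment over 13437 genes. Libraries were the replicates, and since classes came from the same cells, p-values are not independent of clustering. The p-values measure only the spread between these 4 libraries, which differ in labelled age. That spread is 1 estimate per gene, shared by all comparisons of the fit. Scatter between libraries in any of the 6 classes therefore enters each p-value. The fit was also run on simulated counts, and the outcome is not reported here. Named genes were the 9 members, the 2 genes most like each in log2(CPM + 1), the 6 highest of each list, markers and H19, and some of these genes are not reported here. Members and lists were chosen with earlier results of these data known. Intervals and limits cover counting error. DESeq2 1.42.0 was an alternative. Gene positions are from GENCODE vM21.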

Additional observations from a re-analysis of the deposited data

Results flagged for a closer look

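In 6 of 51 groups of 4 libraries, 1 library lay apart from the others by more than Dixon's 95% critical value, where chance flags about 1 in 20. The library labelled day 5 accounted for 5 of the 6. Its macrophages held 189 CPM of Igfbp3, against 5.56 to 12.8 CPM in the others, and 388 CPM of Igfbp7, against 32.4 to 65.0 CPM. The summed endothelial markers of those macrophages were 697 CPM, against 73.4 to 85.3 CPM, and their part in both values was not tested. Its mural cells held 42.7 CPM of Igfbp6, against 0 to 6.50 CPM, where Tg, the thyroglobulin gene, stood at 7945 CPM against 244 to 792 CPM and the endothelial markers at 779 CPM against 38.3 to 169.9 CPM, and their part was not tested. Igf2r was low there in Esm1-negative capillary cells, at 41.5 CPM against 86.0 to 92.0 CPM, and in TFCs, at 33.9 CPM against 45.1 to 47.0 CPM. Igfbp7 in Esm1-negative capillary cells of the library labelled day 20, from 48 cells, was 10506 CPM against 8379.9 to 8460.2 CPM.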

How the results depend on the processing

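Of 25 differences of the 9 genes that passed, 21 passed in every alternative run and 4 were lost in at least 1, without a change of sign. Of 15 that did not pass, 9 passed in at least 1. Between capillary classes, where none of 8 genes passed, 1 passed with at most 10000 UMIs per cell, with integrated libraries, with cells thinned to 1000 UMIs and with DESeq2, 3 without a filter on low counts, 0 to 2 when each library was left out in turn, and 5 in the fit of both capillary classes alone, added after the data were seen. The cause was not tested. In the fit of both capillary classes alone, 7.02% of 10095 genes passed. For the other alternative runs no share over all genes is given, so the counts of genes that passed in them have nothing beside them. In the integrated setting the library labelled day 20 had no Esm1-negative cells. For libraries labelled day 20 and day 10, 5 of 32 gene and class pairs differed at least 2-fold, against 17 of 33 for those labelled day 30 and day 5, where 10.3% and 12.3% of the pairs over all genes did.

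Signs changed only in differences that had not passed. Between capillary classes Igf2r turned to 0.018 (at most 10000 UMIs) and 0.030 (Esm1 by 1 UMI per cell), Igfbp5 to 0.18 (Esm1 by 1 UMI) and Igfbp6 to 0.41 (own cell call at 1000 UMIs) and 0.30 (without the library labelled day 5), with a range of -0.49 to 0.30 over the libraries left out. For fibroblasts minus mural cells, Igf1r turned to -0.19 (library totals), -0.05 and -0.11 (without the libraries labelled day 10 or 20) and -0.041 (fit of both classes alone), Igf2r to -0.20 (at most 10000 UMIs), -0.52 (doublets kept), -0.25 (thinned), -0.12 (library totals) and -0.14 (without the library labelled day 5, up to 0.28 for the others), and Igfbp5 to 0.94 (doublets kept). For TFCs minus fibroblasts, Igf1r turned to -0.37 (at most 10000 UMIs), -0.14 (thinned), -0.0063 (no library term) and -0.061 and -0.063 (without the libraries labelled day 5 or 30, up to 0.17 for the others). No paired analysis was possible because the labelled ages, with 1 library each, share only replicate number 1. Classes were compared within libraries through the library term of the fit. Sums of few cells, such as 21 mural cells of the library labelled day 20, limit what can be read of low genes.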

Other observations

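Outside the 6 classes, Igfbp5 was high in lymphatic endothelial cells, at 3286 CPM (48 cells, labelled day 5), 325 CPM (15 cells, labelled day 10) and 2597 CPM (13 cells, labelled day 20). These cells held 107 to 198 CPM of Igfbp3 and 56.5 to 143 CPM of Igfbp7, below both capillary classes. Larger vessel endothelium held 287 to 1189 CPM of Igfbp3 and 2298 to 3864 CPM of Igfbp7. Igf1r stood at 182, 263, 190.2 and 243 CPM in neutrophils, from 16 to 105 cells a library, and T cells held 11.4 to 99.1 CPM of it. Irs1 and Grb14, which code for an adaptor and an inhibitor of insulin-type receptors and were picked after their values were seen, had mean levels of 38.3 CPM in fibroblasts and 121 CPM in TFCs, against 6.58 CPM and 4.42 CPM in the other of these classes. By edgeR's quasi-likelihood test, TFCs minus fibroblasts came to -2.67 ± 0.19 for Irs1 (adjusted p = 8.45e-11) and 4.72 ± 0.22 for Grb14 (adjusted p = 5.93e-14). The other values here are without a test.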
